A study of Mus musculus with 8 samples.

Results

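The BCL2 family decides whether a cell keeps its mitochondria intact or permeabilises them and dies. The 9 genes described here are Bcl2, Bcl2l1 and Mcl1 (anti-apoptotic), Bax and Bak1 (effectors), Bcl2l11, Bmf and Bbc3 (BH3-only) and Fas (a death receptor outside the family). They were taken by symbol from the deposited table, where all 9 were present among 23235 genes. RNA came from mouse ovarian granulosa cells, which line the follicle around the oocyte, of female C57BL/6 animals with the genotype WT or CNOT6/6L KO. The source names give the mutant as a DKO, and Cnot6 and Cnot6l encode deadenylases that shorten mRNA poly(A) tails. Each genotype was either untreated (0 h) or taken 44 h after PMSG, a gonadotropin that acts mainly on the FSH receptor, with 2 libraries in each of the 4 groups. The labels name no age, PMSG dose, number of animals, Cre driver or deleted exons, and do not give whether a group's replicates are different animals. P-values therefore reflect the spread between these libraries alone, which may be technical.

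In background, the anti-apoptotic proteins hold the effectors and the BH3-only proteins in check at the outer mitochondrial membrane. BH3-only proteins are switched on by loss of survival signals or by damage, and enough of them releases Bax and Bak to form pores, after which caspases are activated. Most follicles in the ovary are lost by atresia, which begins with apoptosis of granulosa cells, and FSH is the main survival signal for the follicles that go on growing. FAS engages caspase-8 from the cell surface and reaches the mitochondria through the BH3 protein BID.

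Values are FPKM, fragments scaled to transcript length and library size, so levels of different genes can be compared within a library. Tests used limma on log2(FPKM + 1), fitted to 13688 genes that reached 1 FPKM in at least 2 libraries, with Benjamini-Hochberg adjustment over all of them and calls at an adjusted p under 0.05. Differences are on that log2 scale, where the pseudocount of 1 shrinks those of weakly expressed genes. Of the 9 genes, 8 passed the filter. Bmf stayed under 1 FPKM in every library and was not tested, and Bcl2 passed it only through the 4 libraries at 0 h, so a lower value at 44 h was in part built into its entry.

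The libraries had relative depths of 0.904 to 1.25, where 1 is the median library. All 12 granulosa markers were detected in each library (summed FPKM from 10197 to 26191), and so were all 15 oocyte markers (996 to 5325), with the sums higher in KO than in WT at each time and lower at 44 h. KO replicate 1 at 44 h stood apart from the other treated libraries: Lhcgr, the LH receptor that PMSG induces, was 18.8 FPKM there, 261 in KO replicate 2 and 299 and 308 in WT. A gap of 2-fold or more separated these KO libraries at 1527 genes, and the replicates of the other groups at 317 to 432. Cnot6 was 11.7 and 12.01 FPKM in KO and 29.1 and 18.4 in WT at 0 h. In the treated library labelled KO replicate 1 it was 26.7, within the treated WT range of 26.0 to 26.9. In treated KO replicate 2 it was 17.4, above both untreated KO libraries and below every WT library. Cnot6l was 2.01 FPKM in treated KO replicate 1 and 1.61 in treated KO replicate 2, below the 4.20 and 2.63 of treated WT. In untreated KO it was 4.69 and 1.97 against 6.11 and 7.07 in untreated WT. Neither gene was called in the comparison of genotypes averaged over times (-0.60 and -0.76, limma adjusted p = 0.196 for each). These are whole-gene values, and the deleted part is not given in the sources used here.

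**Figure D1:**
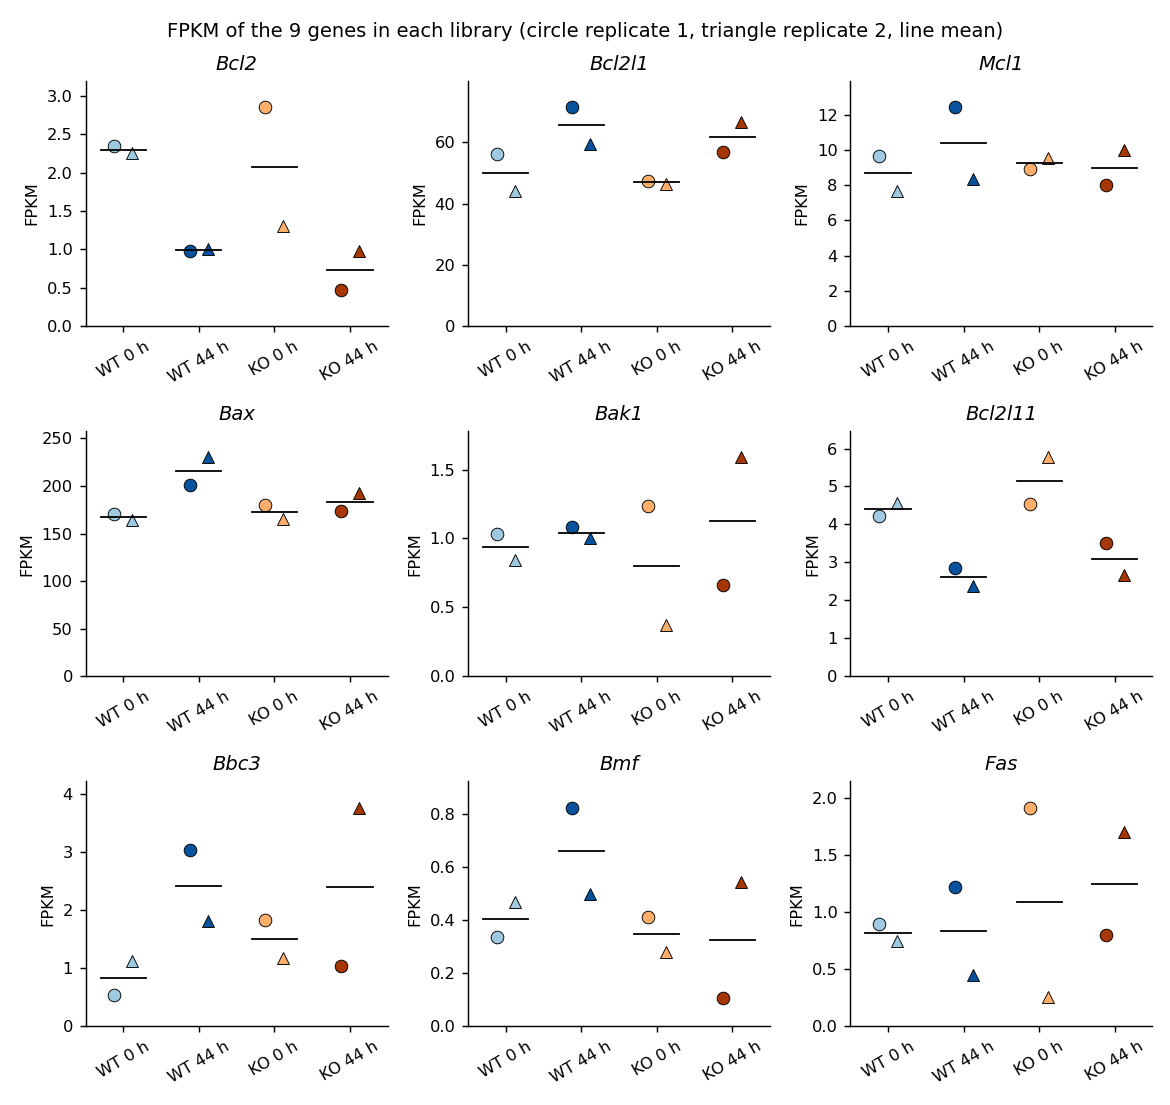
FPKM of the 9 genes in the 8 libraries, 1 panel per gene with its own linear axis from 0; circles are replicate 1, triangles replicate 2 and lines the group mean (n = 2). Bcl2 and Bcl2l11 lie lower in all 4 libraries at 44 h than in all 4 at 0 h, and Bcl2l1 lies higher.

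The 9 genes spanned more than 2 orders of magnitude, and Bax and Bcl2l1 made up 91.3% to 94.9% of their summed FPKM in every library. The mean over the 8 libraries was 185 FPKM for Bax, 56.1 for Bcl2l1, 9.32 for Mcl1, 3.81 for Bcl2l11, 1.79 for Bbc3, 1.52 for Bcl2, 0.999 for Fas, 0.977 for Bak1 and 0.435 for Bmf. The first 4 kept that order in 8 of 8 libraries with no overlap of their ranges. Bcl2l11 exceeded Bbc3 in 6 of 8 libraries, Bbc3 exceeded Bcl2 in 4 of 8, Bcl2 exceeded Fas in 5 of 8 and Fas exceeded Bak1 in 4 of 8, so these neighbours cannot be ordered. Bak1 exceeded Bmf in 8 of 8, although their ranges overlapped.

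Among the effectors, Bax was the most abundant of the 9 genes. It was 170 and 164 FPKM in untreated WT, 180 and 166 in untreated KO, 201 and 230 in PMSG-treated WT and 174 and 192 in PMSG-treated KO. Both WT libraries at 44 h lay above all others, whereas the KO values at the 2 times overlapped. The difference between 44 h and 0 h was 0.36 in WT (SE 0.145, limma adjusted p = 0.189) and 0.08 in KO (SE 0.145, adjusted p = 0.789), and the difference between those differences was -0.28 (95% interval -0.76 to 0.20, adjusted p = 1.00). Bak1, the other pore-forming protein, was 1.03 and 0.845 in untreated WT, 1.24 and 0.370 in untreated KO, 1.08 and 1.00 in PMSG-treated WT and 0.662 and 1.59 in PMSG-treated KO. Its groups overlapped in all 4 comparisons, and its KO replicates at 0 h differed by more than any of its group means did.

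Among the anti-apoptotic genes, Bcl2 lay lower in every PMSG-treated library, Bcl2l1 lay higher in every one without passing the test, and Mcl1 overlapped between times. Bcl2l1, which encodes BCL-XL, was 56.3 and 43.9 FPKM in untreated WT, 47.4 and 46.4 in untreated KO, 71.4 and 59.6 in PMSG-treated WT and 56.9 and 66.5 in PMSG-treated KO. All 4 libraries at 44 h lay above all 4 at 0 h. Averaged over genotypes the difference was 0.38 (SE 0.128, 95% interval 0.08 to 0.69), and it did not pass the test (limma adjusted p = 0.0785). With median-of-ratios scaling of the FPKM it was 0.52 and was called (adjusted p = 0.0442). That scaling moved the median difference of all genes from -0.12 to -0.00152.

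Bcl2, the founding member, was low throughout, and its lower values at 44 h are given as a description, since it entered the test only through the 0 h libraries. It was 2.34 and 2.25 FPKM in untreated WT, 2.85 and 1.30 in untreated KO, 0.972 and 0.998 in PMSG-treated WT and 0.469 and 0.982 in PMSG-treated KO. No library at 44 h reached the lowest value at 0 h, and the group means were 0.985 ± 0.0188 and 2.30 ± 0.0616 in WT and 0.725 ± 0.362 and 2.08 ± 1.09 in KO (SD, n = 2). In bulk RNA, fewer cells of a type and less RNA per cell cannot be told apart. The difference averaged over genotypes was -0.77 (SE 0.205, 95% interval -1.25 to -0.28, limma adjusted p = 0.0446). A call so made supports no fall, and it was lost with a replicate block (adjusted p = 0.0772), without a filter (0.0761), with median-of-ratios scaling (0.0589) and without any 1 of the libraries other than KO replicate 2 at 44 h, with the value between -0.95 and -0.58 in those fits.

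Mcl1, a short-lived anti-apoptotic protein encoded by an unstable mRNA, was 9.66 and 7.67 FPKM in untreated WT, 8.92 and 9.56 in untreated KO, 12.4 and 8.35 in PMSG-treated WT and 8.02 and 9.97 in PMSG-treated KO. Values at the 2 times overlapped in both genotypes. The difference was 0.22 in WT (limma adjusted p = 0.601) and -0.04 in KO (adjusted p = 0.941), and the sign in KO changed to 0.10 without replicate 1 at 44 h, to 0.12 after quantile normalization and to 0.0856 with median-of-ratios scaling.

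Of the BH3-only genes, Bcl2l11 (BIM) was called lower after PMSG only in the average over genotypes, a call kept in 3 of 7 other settings. Bbc3 (PUMA) was not called. Both genes are textbook targets of FOXO transcription factors, and their promoters are shown for that reason. The 2 genes were picked with their values known, and FOXO activity in these cells was not measured. RefSeq (GRCm38.p6) gave 16 windows of 250 bases before to 50 after a transcript start for the 9 genes, all of which matched by symbol. The FOXO core GTAAACA was searched on both strands and was found in 2 of these windows, 1 of 2 for Bcl2l11 and 1 of 3 for Bbc3. AP-1 (TGACTCA) and CRE (TGACGTCA) were searched the same way, and were found in 1 window, that of Fas, and in 0 of the 16. In the 32851 windows of all genes the shares were 3.65% for the FOXO core, 5.2% for AP-1 and 1.79% for CRE. A match is one of letters and not evidence of binding. In the Bcl2l11 window, chr2:128125788-128126087 (plus strand), the FOXO core lay 227 bases before the start. In the Bbc3 window, chr7:16310011-16310310 (plus strand), it lay on the opposite strand 167 bases before the start, and so reads as its reverse complement. The match is in capitals in both lines, each 5′ to 3′.
Bcl2l11: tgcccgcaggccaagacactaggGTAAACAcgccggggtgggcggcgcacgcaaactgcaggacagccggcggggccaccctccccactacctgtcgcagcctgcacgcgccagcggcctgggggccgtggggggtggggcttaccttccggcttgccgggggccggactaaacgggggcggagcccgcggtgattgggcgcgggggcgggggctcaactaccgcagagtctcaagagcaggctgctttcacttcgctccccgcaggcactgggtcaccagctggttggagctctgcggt
Bbc3: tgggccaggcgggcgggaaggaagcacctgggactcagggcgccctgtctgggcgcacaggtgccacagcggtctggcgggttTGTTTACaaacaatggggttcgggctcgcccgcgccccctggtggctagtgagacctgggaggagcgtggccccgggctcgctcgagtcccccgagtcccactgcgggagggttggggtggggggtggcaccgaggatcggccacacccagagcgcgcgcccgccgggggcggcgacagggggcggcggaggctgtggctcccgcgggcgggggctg

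Bcl2l11 was 4.22 and 4.58 FPKM in untreated WT, 4.53 and 5.77 in untreated KO, 2.86 and 2.37 in PMSG-treated WT and 3.52 and 2.66 in PMSG-treated KO. All 4 libraries at 44 h lay below all 4 at 0 h, with KO replicate 1 the highest of the treated ones. The difference averaged over genotypes was -0.59 (SE 0.153, 95% interval -0.95 to -0.23, limma adjusted p = 0.0420), and it was close in the genotypes, at -0.58 in WT and -0.59 in KO, a difference of -0.01 with a wide interval (-0.73 to 0.71). The call was lost with a replicate block (adjusted p = 0.0777), without a filter (0.0827), with quantile normalization (0.125, at -0.45) or median-of-ratios scaling (0.0727, at -0.48) and without any 1 of the libraries other than KO replicate 1 at 44 h, with the value between -0.66 and -0.51 in those last fits.

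Oocyte markers were lower at 44 h as well. Their summed FPKM was 1842 and 3163 in untreated WT, 5325 and 4524 in untreated KO, 1011 and 996 in PMSG-treated WT and 2393 and 1430 in PMSG-treated KO, and 14 of the 14 tested were called lower at 44 h in the averaged comparison. The libraries with the highest and lowest Bcl2l11 were among the 2 highest and 2 lowest in oocyte markers. Their part in the Bcl2 and Bcl2l11 results was not tested.

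Bbc3 was 0.547 and 1.13 FPKM in untreated WT, 1.84 and 1.17 in untreated KO, 3.03 and 1.81 in PMSG-treated WT and 1.03 and 3.76 in PMSG-treated KO. The WT libraries did not overlap between times, while KO replicate 1 at 44 h lay below both KO libraries at 0 h and KO replicate 2 was the highest of all 8. The difference was 0.89 in WT (SE 0.428, limma adjusted p = 0.253), 0.32 in KO (SE 0.428, adjusted p = 0.699) and 0.61 on average (adjusted p = 0.192). Without KO replicate 1 at 44 h the average was 0.91 and was called (adjusted p = 0.0267), and in KO the difference was 0.94 without that library and -0.29 without replicate 2. Bmf, which senses cytoskeletal and adhesion changes, was 0.338 and 0.469 in untreated WT, 0.412 and 0.281 in untreated KO, 0.825 and 0.500 in PMSG-treated WT and 0.107 and 0.545 in PMSG-treated KO. The WT libraries again did not overlap and the KO libraries did.

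Fas, the death receptor, was 0.894 and 0.748 FPKM in untreated WT, 1.92 and 0.259 in untreated KO, 1.22 and 0.448 in PMSG-treated WT and 0.804 and 1.70 in PMSG-treated KO. Its groups overlapped in all 4 comparisons, and its highest and lowest values were the replicates of 1 group, KO at 0 h. The 44 h difference was -0.02 in WT and 0.20 in KO (limma adjusted p = 0.984 and 0.825), and the WT value was 0.0339 with median-of-ratios scaling. Fasl, its ligand, was between 0 and 0.339 FPKM and was not tested.

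**Figure D2:**
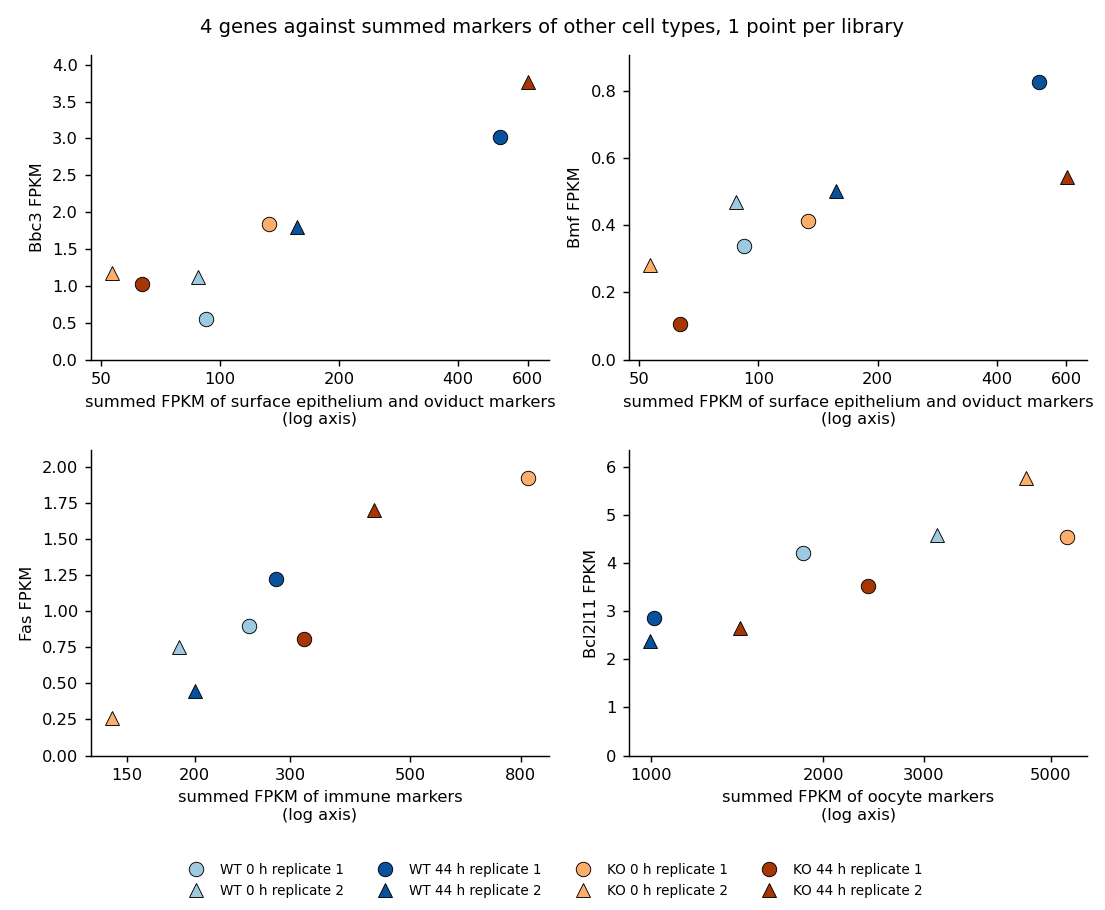
Each point is a library: FPKM of 4 genes (linear axis from 0) against the summed FPKM of marker lists of other cell types (log axis), coloured by group, with circles for replicate 1 and triangles for replicate 2. Bbc3 is highest in the libraries with the most surface epithelium and oviduct marker RNA (511, of it 366 Ovgp1, and 601, of it 279 Ovgp1). Fas is highest in those with the most immune marker RNA (826 and 428).

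Markers of other cell types varied from library to library alongside the low genes. The 10 surface epithelium and oviduct markers, none of them listed at 0 in any library, summed to 92.0 and 88.0 FPKM in untreated WT, 133 and 53.2 in untreated KO, 511 and 157 in PMSG-treated WT and 63.4 and 601 in PMSG-treated KO, with Ovgp1 from 1.60 to 366. Bbc3 was highest in the 2 libraries with the highest sums, WT replicate 1 and KO replicate 2 at 44 h, as was Bmf. Ovgp1 alone was 366 of the 511 in that WT library and 279 of the 601 in that KO library, against 6.05 in WT replicate 2 at 44 h. The rank of the WT library in this sum thus rests mainly on Ovgp1. The 10 immune markers in the table summed to 252 and 187 in untreated WT, 826 and 141 in untreated KO, 283 and 201 in PMSG-treated WT and 319 and 428 in PMSG-treated KO, with Lyz2 from 82.0 to 588 and Cd3e, a T cell gene, listed at 0 in 4 libraries. Fas was highest in the 2 libraries with the most immune marker RNA and lowest in the 1 with the least, and Bak1 was highest in the same pair and lowest in the same library. Theca and stroma markers summed to 87.8 to 124 at 0 h and 231 to 328 at 44 h, and endothelial markers to 10.7 to 32.8 over all libraries. Much of the rise in the theca and stroma sum was in Cyp17a1 (1.95 to 21.6 FPKM at 0 h and 81.9 to 137 at 44 h). Of the 8 theca and stroma markers tested, 7 lay higher and 1 lower at 44 h averaged over genotypes. The part of these cells in the values of the low genes was not tested.

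Between 44 h and 0 h, 2 of the 8 tested genes were called in the comparison averaged over genotypes, both lower, against 17.5% of all genes tested (693 higher and 1703 lower, or 919 and 948 with median-of-ratios scaling). That total ran from 28 genes without WT replicate 1 at 44 h to 3818 without KO replicate 1 at 44 h, and was below 100 without either WT library at 44 h, WT replicate 2 at 0 h or either KO library at 0 h. Since Bcl2 entered the test only through its 0 h libraries, this share is not read as a result about the group. Bcl2 was also among the genes at an unadjusted p under 0.05 in each genotype, and among those without overlap between times. The counts below that include Bcl2 are not read as such a result either. No overlap between 4 and 4 libraries was seen for Bcl2l1 upward, as for 5.98% of all genes, and for Bcl2 and Bcl2l11 downward, as for 13.3%. In WT alone limma called 0 of the 8 (background 0.0804%), with 3 at an unadjusted p under 0.05, and in KO 0 of the 8 (background 0.139%), with 2. The shares of all genes at an unadjusted p under 0.05 were 24.1% in WT and 21.1% in KO. Neither count separates the 9 genes from the rest, since 11 and 19 genes were called in all. Without KO replicate 1 at 44 h those totals were 1333 and 1169, without KO replicate 2 they were 1330 and 32, and limma again called 0 of the 8 genes. With the WT libraries fitted alone, where 945 genes were called, the adjusted p was 0.0750 for Bcl2, 0.106 for Bbc3, 0.124 for Bcl2l11, 0.137 for Bax and 0.208 for Bcl2l1, still none under the threshold. By ranges, 5 of the 8 did not overlap between times in WT (background 63.1%) and 3 of the 8 in KO (48.4%). The median difference averaged over genotypes was 0.13 for the 8 genes and -0.12 for all genes. With median-of-ratios scaling the median of all genes was -0.00152, and that of the 8 genes was not computed. The 2 medians are therefore not read as a result about the group.

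**Figure D3:**
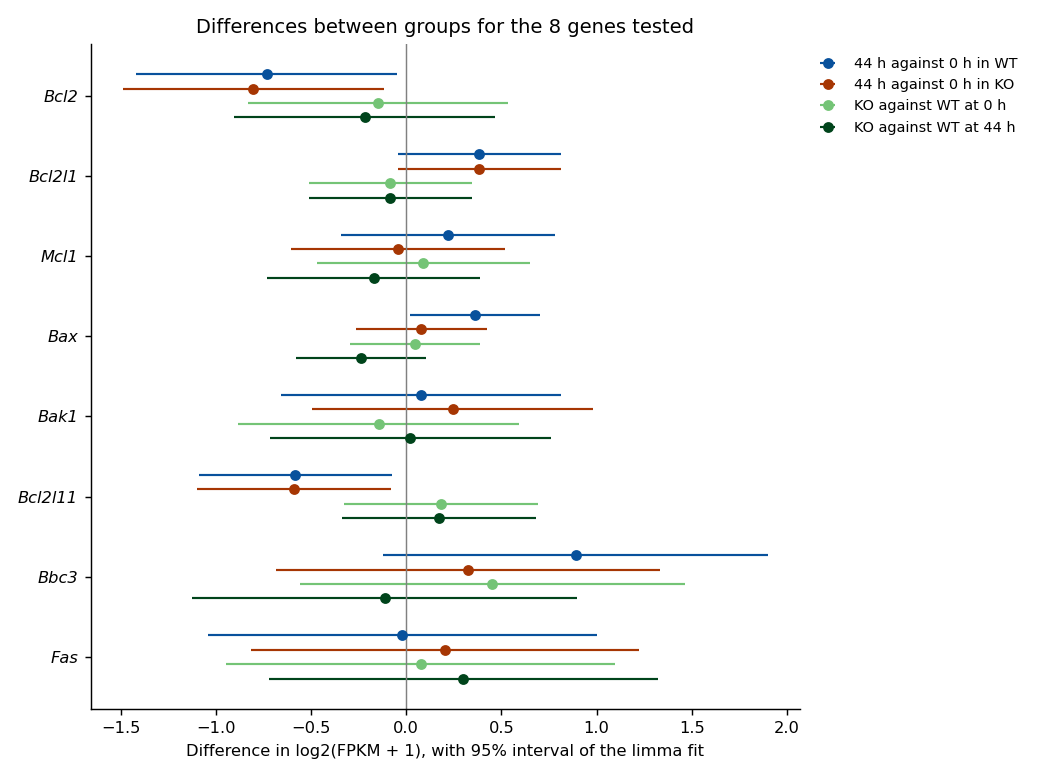
Differences in log2(FPKM + 1) for the 8 tested genes in 4 comparisons, with dots for the limma estimate and bars for its 95% interval. The 44 h estimates lie below 0 for Bcl2 and Bcl2l11 and above 0 for Bcl2l1 in both genotypes, and every KO against WT interval spans 0.

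Between genotypes none of the 8 tested genes was called. Limma called 0 of the 8 at 0 h (background 0.0365%), 0 at 44 h (0.0219%) and 0 averaged over times (0.11%), with 0 at an unadjusted p under 0.05 in each, where the shares of all genes were 9.69%, 9.79% and 17%. Without KO replicate 2 at 44 h, 801 genes were called at 44 h and 1341 averaged over times, again with 0 of the 8. The estimates at 0 h ran from -0.15 for Bcl2 to 0.45 for Bbc3, and those at 44 h from -0.24 for Bax to 0.30 for Fas. Without KO replicate 1 at 44 h, the 44 h estimate changed sign for Bbc3 (-0.11 to 0.50) and Bcl2l1 (-0.08 to 0.0287), and the estimate averaged over times for Mcl1 (-0.04 to 0.0305) and Bak1 (-0.06 to 0.0987). Averaged over times, the 95% intervals of KO minus WT were -0.34 to 0.15 for Bax, -0.38 to 0.22 for Bcl2l1, -0.44 to 0.36 for Mcl1 and -0.18 to 0.54 for Bcl2l11. For the low genes they were wider, from -0.67 to 0.30 for Bcl2, -0.58 to 0.46 for Bak1, -0.54 to 0.88 for Bbc3 and -0.53 to 0.91 for Fas. These intervals do not show that the genotypes were alike.

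By ranges, Bbc3 at 0 h (higher in KO) and Bax at 44 h (lower in KO) were the 2 cases without overlap, 1 of 8 genes at each time against 46.4% and 39.1% of all genes. Over 4 KO and 4 WT libraries no gene of the 9 was free of overlap (background 4%). Limma called 0 of the 8 in the test of whether the PMSG difference itself differed between genotypes (background 0.0438%), with 0 at an unadjusted p under 0.05, as for 1.82% of all genes. The estimate was -0.56 for Bbc3 (95% interval -1.99 to 0.86), which turned to 0.0502 when treated KO replicate 1 was left out and to -1.18 when treated KO replicate 2 was. It was -0.07 for Bcl2 (-1.04 to 0.90), or 0.14 without KO replicate 1 at 44 h, and 0.000557 for Bcl2l1 (-0.60 to 0.60), or 0.11.

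**Figure D4:**
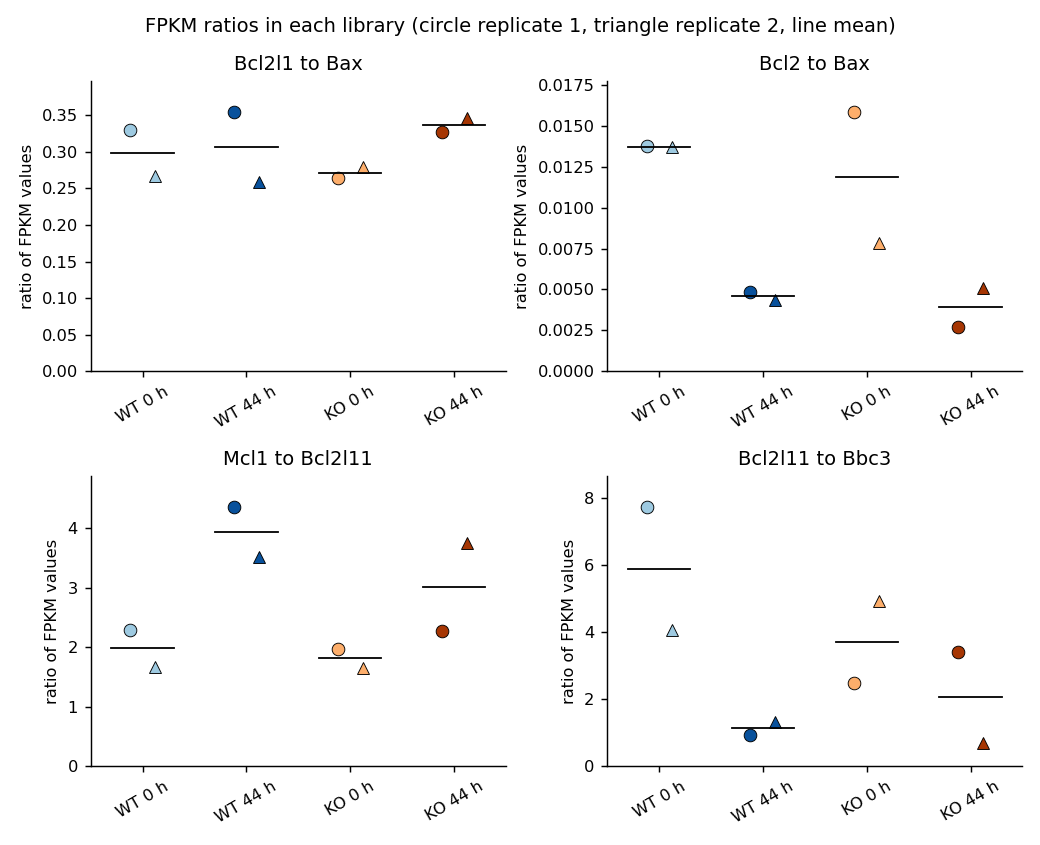
FPKM ratios in each library, with circles for replicate 1, triangles for replicate 2 and lines for the group mean (n = 2), on linear axes from 0. Bcl2 to Bax is lower in all 4 libraries at 44 h, while Bcl2l1 to Bax stays between 0.259 and 0.354.

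Ratios between opposing members are often used as an index of follicle survival, and are given here per library without a test. Bcl2 to Bax was 0.0137 and 0.0137 in untreated WT, 0.0158 and 0.00786 in untreated KO, 0.00482 and 0.00434 in PMSG-treated WT and 0.00270 and 0.00511 in PMSG-treated KO. It was lower in every treated library, but Bcl2 was the smallest part of the anti-apoptotic sum. That sum (Bcl2, Bcl2l1 and Mcl1) relative to the effectors (Bax and Bak1) was 0.399 and 0.326 in untreated WT, 0.327 and 0.344 in untreated KO, 0.419 and 0.298 in PMSG-treated WT and 0.375 and 0.400 in PMSG-treated KO. The WT values at 44 h bracketed those at 0 h and the KO values at 44 h lay above those at 0 h. This effector sum leaves out Bok, an effector relative far more abundant than Bak1. Bok was 110 and 106 FPKM in untreated KO and 217 and 127 in PMSG-treated KO. In WT it was 95.1 and 94.5 untreated and 92.3 and 121 after PMSG. The order of the KO values is therefore given for Bax and Bak1 only, and whether it holds with Bok included was not tested.

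Mcl1 to Bcl2l11, an anti-apoptotic protein against the activator it binds, was 2.29 and 1.68 in untreated WT, 1.97 and 1.66 in untreated KO, 4.35 and 3.52 in PMSG-treated WT and 2.28 and 3.75 in PMSG-treated KO. KO replicate 1 at 44 h lay at the level of the untreated libraries, the other 3 treated libraries above it. Bcl2l11 to Bbc3 was 7.71 and 4.06 in untreated WT, 2.47 and 4.92 in untreated KO, 0.944 and 1.31 in PMSG-treated WT and 3.41 and 0.708 in PMSG-treated KO. Bbc3 thus exceeded Bcl2l11 in WT replicate 1 and KO replicate 2 at 44 h and in no other library. The BH3-only sum (Bcl2l11, Bmf and Bbc3) was 5.10 and 6.17 in untreated WT, 6.78 and 7.22 in untreated KO, 6.71 and 4.68 in PMSG-treated WT and 4.65 and 6.97 in PMSG-treated KO, which overlapped.

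**Figure D5:**
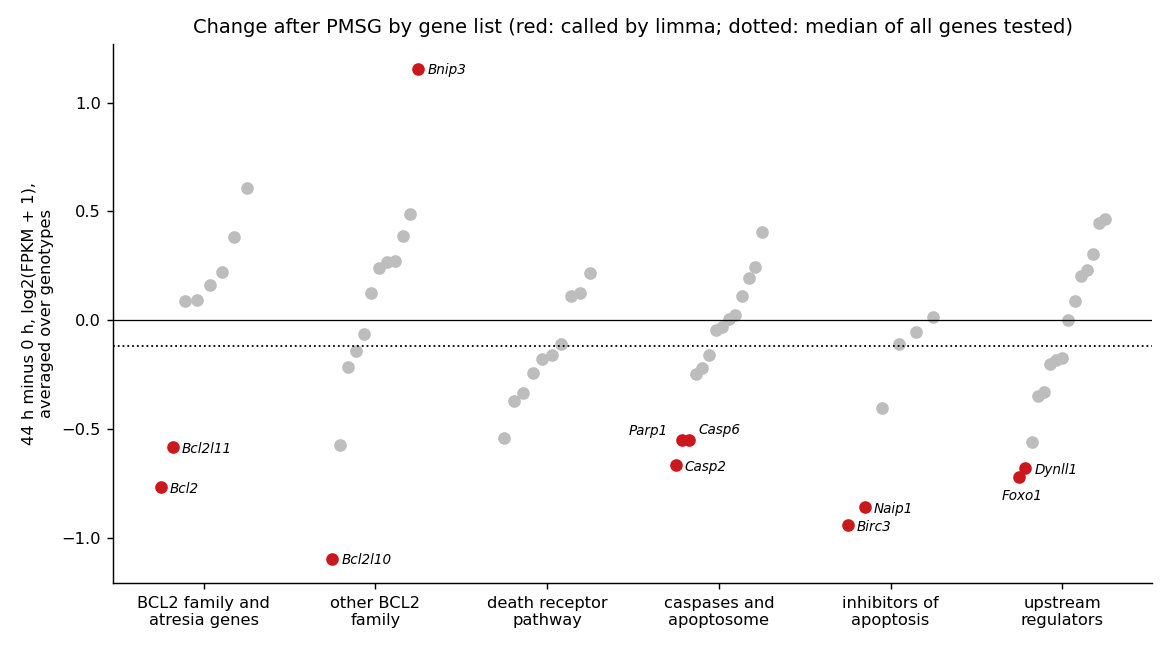
Difference between 44 h and 0 h averaged over genotypes, log2(FPKM + 1), for the tested genes of 6 lists, 1 dot per gene; red dots are genes called by limma and the dotted line is the median of all genes tested (-0.12). Of the 11 called genes, Bnip3 (1.16) lies above 0 and the others below. Bcl2, which is among them, entered the test only through its libraries at 0 h. Of all genes tested 17.5% were called, with 1703 of those 2396 lower, so these counts are not a result about the lists.

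Around the 9 genes, 9 of the 57 tested genes of 5 apoptosis lists were called in the averaged comparison (15.8%), 1 higher and 8 lower. That share lies near the 17.5% of all genes, 1703 of whose 2396 calls were lower, and is not a result about these lists. Of 17 other BCL2 family genes 12 were tested, with 1 called higher and 1 lower in the averaged comparison. Bcl2l10, a family member abundant in oocytes, fell, as the oocyte markers did, from 272 and 436 FPKM in WT and 592 and 539 in KO to 153 and 147 in WT and 368 and 216 in KO (-1.10, SE 0.215, limma adjusted p = 0.0252). Bnip3, a mitophagy receptor induced by hypoxia, rose from 203 and 187 to 644 and 448 in WT and from 174 and 221 to 231 and 551 in KO (1.16, SE 0.280, adjusted p = 0.0361), with KO replicate 1 at 44 h the lowest of the treated libraries. The Bnip3 call was lost without a filter (adjusted p = 0.0674), with quantile normalization (0.0626) and with a replicate block (0.0595), and that of Bcl2l10 with the block (0.0504). Bok, an effector relative abundant in reproductive tissue, was 217 in that library and 92.3 to 127 in the other treated ones (0.39, adjusted p = 0.174), and Bnip3l, a mitophagy receptor like Bnip3, was 88.0 to 111 FPKM in every library.

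None of the 10 tested death receptor pathway genes (of 12) was called. Faim, an inhibitor of FAS signalling, was 43.7 to 66.5 FPKM, Tradd, a TNF receptor adaptor, 14.2 to 28.1, Casp8, the caspase that FAS activates, 19.4 to 28.1 and Tnfrsf1a, a TNF receptor, 16.5 to 22.5. Among 14 caspase and apoptosome genes, 3 fell and 0 rose. Casp6, an executioner caspase, fell from 207 and 209 to 124 and 119 in WT and from 111 and 111 to 87.2 and 89.96 in KO (-0.55, SE 0.0889, limma adjusted p = 0.0192). Casp6 also lay lower in the KO libraries than in the WT libraries of the same time, by a difference of -0.68 averaged over times that did not pass the test (adjusted p = 0.0704). Casp2, a caspase linked to oocyte and DNA damage death, fell by 0.67 on the log2 scale (adjusted p = 0.0206), and Parp1, a DNA repair enzyme and caspase substrate, fell by 0.55 (adjusted p = 0.0217). Cycs, the cytochrome c released through the pores, was 140 to 279 FPKM (0.41, adjusted p = 0.0954), Aifm1 71.7 to 142 and Diablo, which relieves caspase inhibition, 73.3 to 108.

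Of 10 inhibitor of apoptosis genes 6 were tested, of which 2 fell and 0 rose. Birc3, a ubiquitin ligase of the TNF pathway, was 27.9 and 53.5 FPKM in untreated WT, 66.2 and 58.6 in untreated KO, 21.4 and 18.3 in PMSG-treated WT and 36.1 and 27.5 in PMSG-treated KO (-0.94, SE 0.214, limma adjusted p = 0.0314), a call lost without a filter (0.0580) and with a replicate block (0.0589). Naip1, an inflammasome sensor of the same family, fell by 0.86 (adjusted p = 0.0217), and its levels at 0 h were 2.24 and 3.19 in WT and 5.20 and 6.15 in KO. The order of libraries in Birc3 and Naip1 resembled that of the oocyte markers, and the part of oocyte RNA was not tested. Naip genes are near-identical copies, so their reads may be split between them. Birc5, the mitotic protein survivin, was 172 to 358 FPKM (-0.40, adjusted p = 0.130), and Birc2 (12.5 to 17.9) and Birc6 (3.77 to 5.74) were not called.

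Among 16 upstream regulators 15 were tested, of which 2 fell and 0 rose. Foxo1, the FOXO factor abundant in granulosa cells, fell from 119 and 106 to 60.7 and 67.1 FPKM in WT and from 77.1 and 96.8 to 57.5 and 52.6 in KO (-0.72, SE 0.117, limma adjusted p = 0.0192). Foxo3 was 1.11 to 2.36 and was not called (adjusted p = 0.526). Dynll1, a dynein light chain that holds BIM on the cytoskeleton, fell from 109 and 141 to 68.9 and 73.3 in WT and from 110 and 128 to 76.1 and 83.1 in KO (-0.68, SE 0.123, adjusted p = 0.0219). Trp53, the p53 gene, was 135 to 184 (adjusted p = 0.183) and Mdm2, its inhibitor and target, 24.2 to 42.3 (adjusted p = 0.0882). Between genotypes, averaged over times, limma called 0 genes of these 5 lists. The 6 tested inhibitor of apoptosis genes all lay higher in KO (median 0.34), and 10 of the 14 caspase and apoptosome genes lay lower (median -0.11, against 0.03 for all genes). The shares of all genes in each direction were not computed, so these counts are not read as a result about the lists. All 14 tested oocyte markers also lay higher in KO (median 0.97), and their part in these counts was not tested. Each of the 9 genes called outside the set of 9 lost its call without at least 5 of the 8 single libraries in turn, always including WT replicate 2 at 0 h, either WT library at 44 h and either KO library at 0 h, with its direction kept.

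By pattern, the genes most like each of the 9 were found by Pearson correlation of log2(FPKM + 1) over the 8 libraries, among about 7995 genes with a mean FPKM of at least 5. These are descriptions over libraries that share time and genotype. With so many genes searched over 8 libraries, the best matches are high by selection alone. Bcl2l11 was closest to Spg20 (r = 0.991) and Anp32b (0.987), Bcl2 to Adnp2 (0.983) and Pex6 (0.975), Bcl2l1 to Lyrm5 (0.974) and Ndrg2 (0.965), and Bax to Trappc2l (0.977) and Urod (0.976). Bbc3 was closest to Npl (0.995) and to Cldn3 (0.988), a tight junction gene of epithelia, and Bmf to Tnip2 (0.991) and Tgfa (0.976). Bak1 was closest to Gbp2 (0.937), an interferon-induced GTPase, and Cdkn1b (0.923), Fas to Actb (0.908) and Map3k1 (0.901), and Mcl1 to Ptp4a2 (0.937) and Snx2 (0.930). Within the set, Bcl2l11 ran opposite to Bax (r = -0.864) and Bcl2l1 (-0.840), and Fas ran with Bak1 (0.822).

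Overlapping genes limit some of these values. In RefSeq (GRCm38.p6) Bcl2l1 overlaps Cox4i2, Bcl2l11 overlaps Acoxl and Bak1 overlaps Ggnbp1, and whether reads were counted by strand is not given in the sources used here. Cox4i2 was 26.6 and 8.41 FPKM in untreated WT, 15.5 and 6.83 in untreated KO, 46.6 and 62.1 in PMSG-treated WT and 9.71 and 81.2 in PMSG-treated KO. The part of Cox4i2 reads in the Bcl2l1 values was not tested. Acoxl was 0.630 to 2.60 FPKM, and Ggnbp1 was 1.94 to 4.68, above Bak1 in every library.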

How the data were processed

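RNA-seq libraries of granulosa cells were deposited by the authors as 1 table of FPKM values, per the file headers, for 23235 genes in 8 libraries. TopHat2 2.1.1, Cufflinks 2.2.1 and mm9 are named in the submitters' processing notes, without role or order. The table holds no counts, so absolute depth is unknown and no counting interval is given. Samples were grouped by genotype and treatment labels.

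FPKM values were analysed as log2(FPKM + 1) with limma 3.58.1 in R 4.3.3. Genes needed 1 FPKM in 2 libraries. The 4 group means were fitted over all 8 libraries (4 residual degrees of freedom, empirical Bayes with trend), 7 contrasts were tested two-sided, and Benjamini-Hochberg adjustment ran over 13688 genes. The fit was tested on simulated data. Pseudocount, filter, scaling, a replicate block and each library were varied.

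Named genes are the 9 genes, in each pathway list the 4 most abundant genes and any called, in each marker list the 2 most abundant, Cnot6 and Cnot6l, and the 2 genes most like each of the 9; Foxo3, Fasl, Cd3e and the overlapping genes were added after their values were seen. The genes and lists were chosen with earlier results of these data known. Promoters are from RefSeq (GRCm38.p6), another build than mm9.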

Additional observations from a re-analysis of the deposited data

How the results depend on the processing

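Counts of called genes changed with the settings. Between 44 h and 0 h averaged over genotypes (2396 genes) it was 1188 without a filter and 781 with a replicate block, and 28 to 3818 with 1 library left out. In WT (11) it was 7 after quantile normalization, 7 with a replicate block, 34 with robust empirical Bayes, 945 with the groups compared alone and 1339 without both KO libraries at 44 h (4 to 1333 with 1 left out). In KO (19) it was 10 and 8 with pseudocounts of 0.1 and 5, 6 without a filter, 6 with a replicate block, 35 with robust empirical Bayes and 9 with the groups compared alone (3 to 1169 with 1 left out). KO against WT gave 3 genes without a filter, 8 with robust empirical Bayes and 8 without both KO libraries at 44 h at 0 h (5; 3 to 9 with 1 left out), 6 with the groups compared alone at 44 h (3; 2 to 801) and 6 without a filter and 26 with robust empirical Bayes averaged over times (15; 7 to 1341). The interaction (6) ran from 6 to 78 with 1 library left out and from 4 to 7 under the other settings. The cause of these shifts was not tested.

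With a replicate block the averaged 44 h difference was no longer called for Bcl2 (adjusted p = 0.0772) or Bcl2l11 (0.0777), nor for Bcl2l10, Bnip3 and Birc3. Without a filter the calls of Bnip3 and Birc3 were lost as well, and that of Bnip3 also with quantile normalization. The labels do not give whether same-numbered replicates belong together. Over all genes tested, deviations of same-numbered libraries correlated between groups at -0.113 to -0.00684. A pairing that touches fewer genes was not tested.

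Reversals concerned differences that were not called. At 0 h, KO minus WT was -0.00584 for Mcl1 and -0.0565 for Fas after quantile normalization, -0.00586 for Bax with median-of-ratios scaling and -0.11 for Fas with a pseudocount of 0.1. At 44 h it was -0.00960, -0.0669 and -0.00385 for Bak1 with a pseudocount of 0.1, quantile normalization and median-of-ratios scaling. The 44 h difference for Fas in WT was 0.000314 with a pseudocount of 5 and 0.0339 with median-of-ratios scaling, and for Mcl1 in KO it was 0.12 after quantile normalization and 0.0856 with median-of-ratios scaling. The interaction was -0.000202 for Bcl2l1 with a pseudocount of 5, and for Bcl2l11 0.0110, 0.0388 and 0.00122 with a pseudocount of 0.1, quantile normalization and median-of-ratios scaling.

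With 1 library left out, KO minus WT at 0 h ran from -0.52 to 0.22 for Bcl2, -0.26 to 0.0919 for Bcl2l1, -0.0589 to 0.24 for Mcl1, -0.0134 to 0.10 for Bax, -0.50 to 0.21 for Bak1 and -0.53 to 0.68 for Fas. At 44 h it ran from -0.21 to 0.0458 for Bcl2l1, -0.43 to 0.0899 for Mcl1, -0.30 to 0.34 for Bak1, -0.73 to 0.50 for Bbc3 and -0.00882 to 0.61 for Fas. Averaged over times it ran from -0.37 to 0.00237 for Bcl2, -0.17 to 0.00455 for Bcl2l1, -0.17 to 0.0902 for Mcl1, -0.24 to 0.12 for Bak1, -0.14 to 0.48 for Bbc3 and -0.12 to 0.49 for Fas.

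The 44 h difference in WT ran from -0.0406 to 0.48 for Mcl1 and -0.33 to 0.29 for Fas. In KO it ran from -0.18 to 0.10 for Mcl1, -0.11 to 0.60 for Bak1, -0.29 to 0.94 for Bbc3 and -0.40 to 0.81 for Fas. Averaged, it ran from -0.0409 to 0.22 for Mcl1, -0.0154 to 0.34 for Bak1 and -0.21 to 0.39 for Fas. The interaction ran from -0.44 to 0.30 for Bcl2, -0.17 to 0.18 for Bcl2l1, -0.16 to 0.14 for Bcl2l11, -0.19 to 0.52 for Bak1, -1.18 to 0.0502 for Bbc3 and -0.38 to 0.83 for Fas. Where 1 library remained in a group, it was assumed to vary like the others. Precision rests on 2 libraries a group, and the depth behind each value is unknown.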
